A study of Bos taurus with 23 samples.

Results

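Vimentin (VIM, ENSBTAG00000018463) and smooth muscle actin (ACTA2, ENSBTAG00000014614) are the 2 genes described here, of 16094 in the deposited count table. They were chosen by their Ensembl IDs, and both have counts in every one of the 23 libraries. The table gives IDs only, and 0 of its IDs had a partner in the RefSeq table at hand, so the names VIM and ACTA2 rest on the choice of these IDs. Markers and other cytoskeletal genes could not be matched for the same reason. The labelled cell type, mesenchymal stem cells, was therefore not checked against its markers.

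Vimentin is the protein of the intermediate filaments of fibroblasts and other mesenchymal cells, and it is a common marker that a cell is mesenchymal. Smooth muscle actin is the actin isoform of vascular smooth muscle and of myofibroblasts, where it is built into contractile stress fibres. In mammalian stromal cells ACTA2 transcription is driven by serum response factor with its myocardin-related partners, and it rises with transforming growth factor beta and with tension on a stiff surface. Levels of ACTA2 are used in culture as a sign of a contractile, myofibroblast state, while VIM is expected in every mesenchymal cell.

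All cells came from umbilical cord of Holstein cattle and were kept in DMEM of low glucose content with added serum, as the labels' protocols state. Untreated primary cells were sampled after 12 days (n = 3, of which 2 libraries are named WJ and 1 BUC) and after 50 days, with 3 libraries named WJ and 3 named BUC at P numbers 10, 15 and 18. At 12 days the P number was 3 for BUC and 3 and 4 for WJ. Between 12 and 50 days, time and P number thus cannot be told apart. An immortalized line, which derives from WJ cells that received an SV40 large T plasmid transiently, was collected after 21 days (n = 9, of which 5 libraries are named AM and 4 FBS) and after 165 days (n = 5, all named 2D). The 14 libraries of the line come from 1 line, and its days in culture match those of no primary group. What the tags stand for is not assumed. The labels do not say which libraries are separate cultures or animals, so p-values measure the spread between libraries, which may be partly technical. Totals ran from 1840606 to 15486372 counts per library. Levels are counts per 1000000 of a library's total count (CPM), and fold changes are from edgeR with TMM scaling, which sets libraries on a common scale by the bulk of their genes. TMM factors ran from 0.801 to 1.27 and were highest in the 21-day line, so the scales differ there. Counting error is small: the widest 95% Wilson interval has a half-width of 11.1% of its value, and it covers counting error only. In bulk RNA fewer cells that express a gene and less RNA per cell cannot be told apart.

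VIM was among the most abundant transcripts in all 23 libraries and differed by 3.08-fold between the lowest and the highest. It was the gene with the most counts in 13 libraries, which were the 3 at 12 days, the 9 of the 21-day line and the BUC library of P number 10. The rank is by counts of a 3′ tag method, not divided by length. Mean VIM levels were lowest in the 165-day line, and the other 4 groups lay close together.

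In the 12-day primary cells VIM stood at 13291 CPM in the BUC library and at 12201 and 11982 CPM in the WJ libraries, a mean of 12491 ± 701 CPM (SD, n = 3). At 50 days the WJ libraries stood at 13347, 13962 and 13727 CPM for P numbers 10, 15 and 18, a mean of 13679 ± 310 CPM (SD, n = 3). The BUC libraries stood at 20249, 9148 and 12163 CPM for the same P numbers, a mean of 13853 ± 5741 CPM (SD, n = 3). The WJ libraries were thus close to each other and all above the 12-day ones, while the BUC libraries lay on both sides of the WJ and the 12-day ranges.

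VIM did not pass the test in either comparison of 50 with 12 days, which share the 12-day libraries. Its log2 fold change was 0.21 with a standard error (SE) of 0.23 for WJ (adjusted p = 0.516; here and throughout, edgeR's quasi-likelihood test adjusted by Benjamini-Hochberg over all genes tested), where 34.9% of all tested genes were called. Groups that do not overlap in CPM were found for 59% of genes in that comparison. Fitted on these 6 libraries alone, VIM was called, with a log2 fold change of 0.33 (edgeR adjusted p = 0.00628), as were 53.1% of the genes tested in that fit. For BUC the log2 fold change was 0.29 (SE 0.23, edgeR adjusted p = 0.332), against 47.7% of genes called, and it was -0.06 without the BUC library of P number 10. WJ over BUC at 50 days gave a log2 fold change of -0.07 (SE 0.23, edgeR adjusted p = 0.892). The interval of 2 standard errors to each side ran from -0.54 to 0.40, and without the BUC library of P number 10 the value was 0.26. Of all genes, 19% were called between WJ and BUC.

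In the 21-day line VIM ranged from 9354 to 18778 CPM with a median of 15470 CPM, and its mean was 14722 ± 2948 CPM (SD, n = 9). This range covers all the 12-day and WJ values. The log2 fold change against the 12-day primary cells was -0.12 (SE 0.19, edgeR adjusted p = 0.615), and it was 0.24 with library totals in place of TMM. VIM was therefore not called early in the line, and the sign of its difference depended on the scaling. The interval on the TMM scale ran from -0.50 to 0.26, and 55.2% of genes were called. Against the 50-day WJ and BUC cells the 21-day line was also not called for VIM, with log2 fold changes of -0.33 (edgeR adjusted p = 0.141) and -0.40 (edgeR adjusted p = 0.0678) that turned to 0.11 and 0.09 with library totals. These comparisons called 51.7% and 57.3% of genes. Against BUC, VIM passed at -0.63 without the BUC library of P number 15 (edgeR adjusted p = 0.0102), and also without AM library 1 or AM library 2 of the line. In that order, these fits called 5812 of 11783, 6564 of 11490 and 6591 of 11491 genes, so passing was common.

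VIM fell in the line between 21 and 165 days. The 5 libraries at 165 days stood at 6585, 7358, 7934, 7410 and 8468 CPM, a mean of 7551 ± 703 CPM (SD, n = 5), all below the 9 libraries at 21 days. Such groups without overlap were found for 32.8% of genes. With TMM-scaled library sizes these ranges overlap, since the lowest library at 21 days, FBS library 2, is then at 7405 CPM against 7476 to 8728 CPM at 165 days. The log2 fold change was -0.65 (SE 0.16, edgeR adjusted p = 0.00153), and -0.96 with library totals. A fall of this size was ordinary for this comparison: 60.3% of genes were called, 30.4% as lower, and 5240 of 11489 had a larger absolute log2 fold change. All 165-day libraries carry the tag 2D and no 21-day library does, so time and tag cannot be told apart.

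VIM was also lower in the 165-day line than in each group of primary cells. The log2 fold change was -0.98 with a standard error of 0.20 against the 50-day WJ cells (edgeR adjusted p = 0.000258), and every library of the line was below every WJ library. In that comparison 61.5% of genes were called, 29.3% as lower, and groups did not overlap for 61.4%. Against 50-day BUC it was -1.06 (edgeR adjusted p = 0.000106, with 64.2% of genes called, 31.2% as lower), and against the 12-day cells -0.77 (edgeR adjusted p = 0.00229, with 65.8% called, 32.9% as lower). The mean CPM of the primary groups was 1.65 to 1.83 times that of the 165-day line. In the order of mean VIM levels by library total, the 165-day line was lowest, followed by the 12-day cells, 50-day WJ, 50-day BUC and the 21-day line. With TMM-scaled library sizes the 21-day line moved to the second place from below, at 12534 CPM against 7978 CPM at 165 days. In both orders the step up from the 165-day line passed the test in the fit of all groups, and no later step did.

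**Figure D1:**
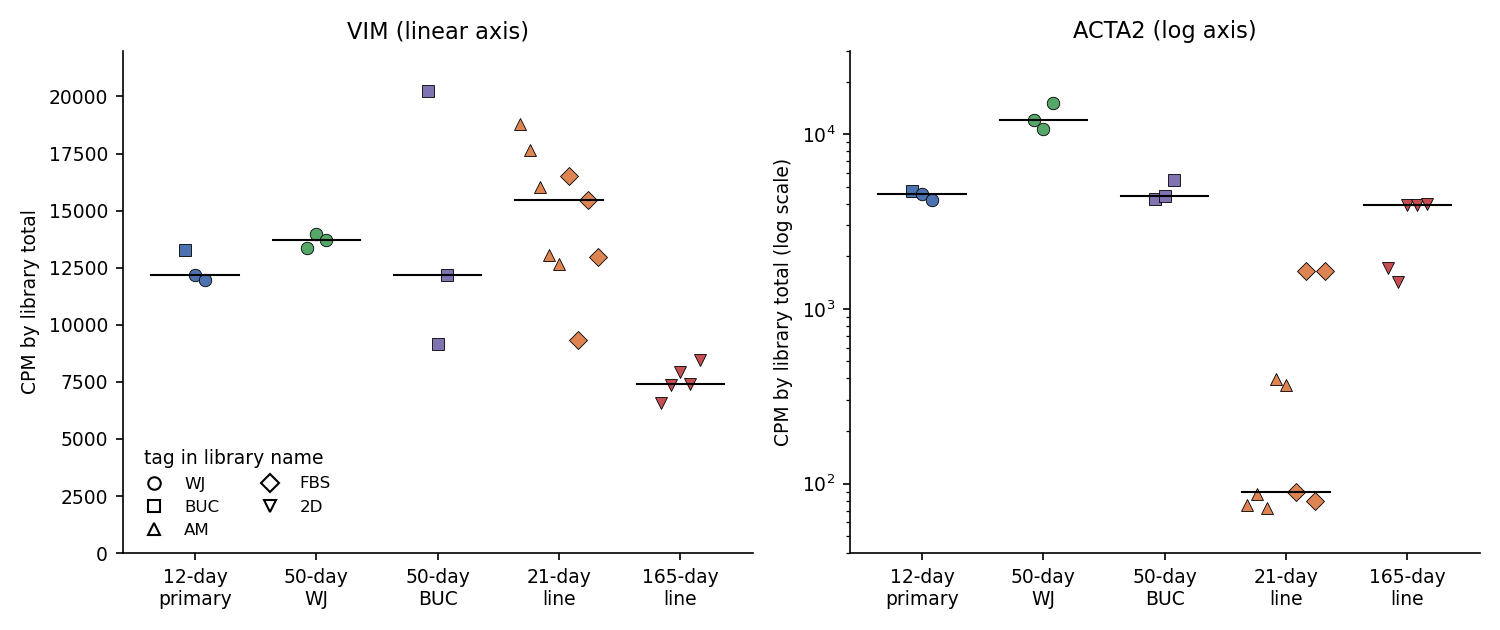
VIM (left, linear axis) and ACTA2 (right, log axis) in CPM of the library total, with 1 point for each of the 23 libraries, its shape giving the tag in the library name and the line the group median. VIM lies between 6585 and 8468 CPM at 165 days and between 9148 and 20249 CPM in all other libraries, while ACTA2 runs from 72.6 CPM in the 21-day line to 15013 CPM in the 50-day WJ cells.

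ACTA2 varied far more than VIM, by 207-fold between the lowest library, in the 21-day line, and the highest, in the 50-day WJ cells. It was high in all primary cells, low in the 21-day line and intermediate in the 165-day line. Among primary cells it was highest in WJ at 50 days. Actin genes are alike in their coding sequence, and 3′ reads that fall in shared sequence may be split or dropped by the counting, so absolute ACTA2 levels carry that uncertainty.

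In the 12-day primary cells ACTA2 stood at 4753 CPM in the BUC library and at 4569 and 4190 CPM in the WJ libraries, a mean of 4504 ± 287 CPM (SD, n = 3). The 50-day BUC libraries stood at 4250, 4447 and 5486 CPM for P numbers 10, 15 and 18, a mean of 4728 ± 664 CPM (SD, n = 3). The 50-day WJ libraries stood at 11977, 10726 and 15013 CPM, a mean of 12572 ± 2204 CPM (SD, n = 3). BUC cells at 50 days thus overlapped the 12-day cells, whereas all 3 WJ libraries at 50 days were above every other library of the series. In the WJ libraries at 50 days ACTA2 ranked 2 or 3 among all genes by counts, against 17 to 23 at 12 days and in BUC.

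The difference of 50-day WJ to the 12-day cells did not pass the test in the fit of all 5 groups, although the libraries did not overlap. There the log2 fold change of 50-day WJ over 12-day cells was 1.57 (SE 0.96, edgeR adjusted p = 0.221). In that fit a gene has the same dispersion in every group, and ACTA2 spanned 22.6-fold within the 21-day line. Fitted on the 6 libraries compared, the log2 fold change was 1.69 (SE 0.14, edgeR adjusted p = 5.67e-06). The same held for WJ against BUC at 50 days, with 1.35 and a standard error of 0.96 (edgeR adjusted p = 0.375) in the fit of all groups and 1.36 (SE 0.18, edgeR adjusted p = 0.000706) in the fit of these 6. These smaller fits called 53.1% and 24.3% of their genes. Groups that do not overlap in CPM were found for 59% and 37.4% of genes in these comparisons. With only the WJ libraries at 12 days, WJ at 50 days gave a log2 fold change of 1.61 in the fit of all groups (edgeR adjusted p = 0.317).

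BUC at 50 days against the 12-day cells gave a log2 fold change of 0.22 (SE 0.94, edgeR adjusted p = 0.874). The interval of 2 standard errors to each side, from -1.66 to 2.11, is too wide to bound the change closely in the fit of all groups. A fit of only the groups compared gave 0.34 (SE 0.14, edgeR adjusted p = 0.0547), also not called, where 6285 of 10166 genes were called. The mean CPM was 1.05 times that at 12 days.

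ACTA2 was lower in the 21-day line than in all primary cells, with no overlap. Its mean was 494 ± 662 CPM (SD, n = 9), and the mean of the 12-day cells was 9.12 times as high. On the TMM scale it was 12.1-fold lower, a log2 fold change of -3.60 (SE 0.70, edgeR adjusted p = 0.000175). The size depended on the libraries and the tool, with -2.69 for only the FBS libraries, -4.78 for only the AM libraries and -4.67 in limma voom. Of the 11489 genes tested, 449 or 3.91% had a larger absolute log2 fold change, 29.7% were called as lower, and groups did not overlap for 45%. Against the 50-day cells the log2 fold change was -5.16 for WJ (edgeR adjusted p = 3.2e-06) and -3.82 for BUC (edgeR adjusted p = 7.63e-05), with -6.22 and -4.88 in limma voom. In these comparisons 24.6% and 27.5% of genes were called as lower, and groups did not overlap for 46.3% and 50.2%.

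The 9 libraries of the 21-day line did not share 1 ACTA2 level. AM libraries 1, 2 and 3 stood at 75.1, 86.7 and 72.6 CPM, and FBS libraries 1 and 3 at 89.9 and 79.7 CPM. AM libraries 4 and 5 stood at 395 and 366 CPM. FBS libraries 2 and 4 stood at 1641 and 1640 CPM. The values thus fall at 3 separate heights, each held by libraries that agree closely, and the lowest is held by libraries of both tags. The lowest count behind these values was 311, in AM library 1, with a 95% Wilson interval of 67.2 to 83.9 CPM, so the heights are apart by far more than counting error. ACTA2 ranked between 80 and 431 among all genes in the 4 libraries at the upper heights and between 2136 and 2745 in the other 5, while VIM ranked first in all 9. Counts over all genes also set some libraries closer together than others. Between libraries of a pair, chi-square per degree of freedom (1 where counting noise alone separates them) was 4.43 to 6.12 among AM libraries 1, 2 and 3, 4.70 for AM libraries 4 and 5, 2.85 for FBS libraries 1 and 3 and 17.0 for FBS libraries 2 and 4, and 10.9 to 53.9 for the other 30 pairs. At 165 days it was 9.43 for libraries 1 and 2, 3.36 to 5.35 among libraries 3, 4 and 5, and 29.6 to 44.9 between these sets. The measure grows with depth, and the labels do not say whether close libraries share a culture.

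AM against FBS as a whole gave a log2 fold change of -2.09 with a standard error of 0.94 for ACTA2 (edgeR adjusted p = 0.525), so it was not called. The means were 199 ± 166 CPM (SD, n = 5) for AM and 863 ± 898 CPM (SD, n = 4) for FBS, and the ranges overlap. In absolute log2 fold change 18 of 10597 genes were larger, and 0.425% of genes were called. VIM gave 0.19 (SE 0.20, edgeR adjusted p = 0.841).

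The libraries of the 21-day line that were high in ACTA2 were low in VIM. FBS library 2 had the lowest VIM level of the group, 9354 CPM, and FBS library 4 had 12954 CPM. AM libraries 5 and 4 had 12666 and 13067 CPM. These 4 are the lowest VIM levels of the 9, also with TMM-scaled library sizes. The remaining libraries held 15470 CPM and 16511 CPM in FBS and 16029 to 18778 CPM in AM. Across groups no such order was seen, since the 50-day WJ cells had the highest ACTA2 with VIM near the 12-day level, and the 165-day line had low VIM with intermediate ACTA2. Nor was it seen within the 165-day line. There libraries 1 and 2, lowest in ACTA2, also had the lowest VIM, 6585 and 7358 CPM, against 7410 to 8468 CPM in libraries 3, 4 and 5. With TMM-scaled library sizes library 2 stood at 8212 CPM of VIM, within the 7564 to 8728 CPM of libraries 3, 4 and 5. Within the 21-day line the TMM factor moved with the order, from 1.2 to 1.27 in the 4 libraries high in ACTA2 and from 1.13 to 1.19 in the other 5. Its part in the result was not tested.

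**Figure D2:**
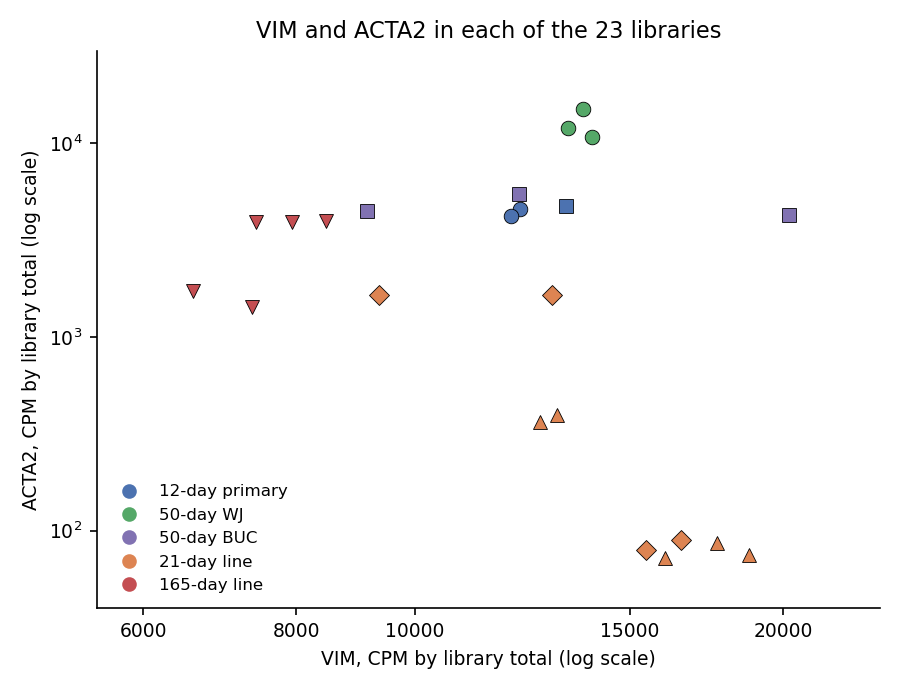
VIM against ACTA2 in each library, both in CPM of the library total on log axes, with colours for groups and the marker shapes of the plot of levels for tags. The 21-day line runs from high VIM with ACTA2 under 100 CPM to 9354 CPM of VIM with 1641 CPM of ACTA2, and the 165-day and 50-day WJ libraries lie apart from it.

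From 21 to 165 days ACTA2 rose in the line. At 165 days libraries 1 and 2 stood at 1717 and 1425 CPM, and libraries 3, 4 and 5 at 3919, 3919 and 3987 CPM. The mean was 2993 ± 1303 CPM (SD, n = 5). The last 3 libraries agree closely and are near the 12-day level. The first 2 are near the highest libraries at 21 days, with which they overlap by library total. With TMM-scaled library sizes the groups do not overlap, at 1590 to 4110 CPM against 61.4 to 1366 CPM at 21 days. The share of all genes so separated was not counted on that scale. The log2 fold change was 2.94 (SE 0.63, edgeR adjusted p = 0.00038), and 120 of 11489 genes, 1.04%, had a larger absolute change. The value with library totals was 2.60, in limma voom 3.92, with only the AM libraries at 21 days 4.11, and with only the FBS libraries 2.02 (edgeR adjusted p = 0.017). In this comparison 29.9% of genes were called as higher. As for VIM, time and tag cannot be told apart here.

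The rise left ACTA2 below the 50-day WJ cells. Over 50-day WJ the 165-day line had a log2 fold change of -2.22 (SE 0.83, edgeR adjusted p = 0.0238), and every library of the line was below every WJ library. Of all tested genes 61.5% were called here, 29.3% as lower, and groups did not overlap for 61.4%, so such a separation was common. The ACTA2 call was lost without libraries 1 and 2 of the 165-day line, at -1.86 (edgeR adjusted p = 0.117). It was also lost without either of them alone and without the WJ library of P number 18, with adjusted p-values from 0.0506 to 0.0638 and log2 fold changes from -2.10 to -2.06. In a fit of only these 8 libraries it was -2.28 (edgeR adjusted p = 0.00015), where 64.8% of genes were called.

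Against the 12-day cells the 165-day line did not pass the test for ACTA2. The log2 fold change was -0.66 (SE 0.83, edgeR adjusted p = 0.499), although the highest library of the line, at 3987 CPM, was below the lowest at 12 days, at 4190 CPM. Groups did not overlap for 69.3% of genes in that comparison, so such a separation was common. A fit of only the groups compared gave a log2 fold change of -0.68 (SE 0.32, edgeR adjusted p = 0.0815), also not called, where 8021 of 11222 genes were called. Against 50-day BUC it was -0.88 (SE 0.83, edgeR adjusted p = 0.363) in the fit of all groups and -0.89 (SE 0.30, edgeR adjusted p = 0.024) in a fit of these 8 libraries, which called 66.5% of genes, and groups did not overlap for 62.2% of genes. In the order of mean ACTA2 levels the 21-day line was lowest, followed by the 165-day line, the 12-day cells, 50-day BUC and 50-day WJ. The step from the first to the second passed the test, the next 2 steps did not, and the last passed in the fit of those groups alone.

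**Figure D3:**
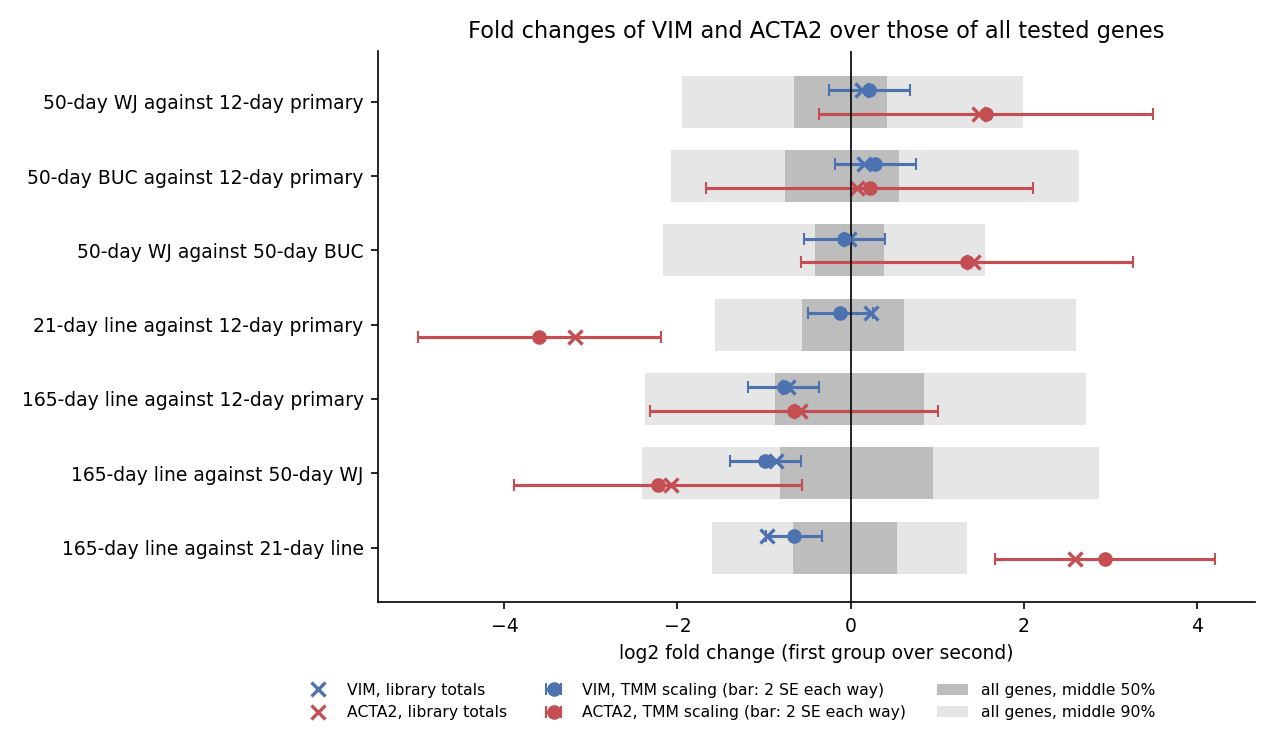
Log2 fold changes of VIM and ACTA2 in 7 comparisons (circles with bars of 2 standard errors to each side, TMM scaling; crosses, library totals) over the middle 50% and 90% of all 11489 tested genes. ACTA2 lies outside the middle 90% for the early line against 12-day cells (-3.60) and for 165 against 21 days in the line (2.94), and VIM lies within the middle 90% throughout.

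The 2 genes changed in opposite directions between 21 and 165 days in the line, where time and tag cannot be told apart. The time effects of line and primary cells were compared directly. For VIM the log2 change from 21 to 165 days in the line minus that from 12 to 50 days in WJ was -0.87 (SE 0.28, edgeR adjusted p = 0.0163), and 44.5% of genes were called, 20.5% with a negative value. The same contrast also says that the line was lower relative to primary cells late than early. For ACTA2 it was 1.37 (SE 1.14, edgeR adjusted p = 0.348). With only the AM libraries at 21 days it was 2.44 (edgeR adjusted p = 0.00749, with 47.2% of genes called), and with only the FBS libraries 0.36 (edgeR adjusted p = 0.803). Spans differed between line and primary cells, so equal times are not compared.

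The number of ACTA2 counts for each 100 VIM counts needs no scaling between libraries. It was 35 to 37.4 in the 12-day cells, 76.8 to 109 in 50-day WJ and 21 to 48.6 in 50-day BUC. In the 21-day line it was 0.40 to 17.5 with a median of 0.545, and in the 165-day line 19.4 to 52.9 with a median of 47.1. All 21-day libraries are below all others, and the 165-day line spans the range of the 12-day and BUC cells. The ratio describes differences between libraries, not the level of one gene against the other.

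On the log2 scale the ratio was 4.56 higher in the 165-day than in the 21-day line (exact permutation test, two-sided p = 0.000999, the lowest value that 2002 splits can give, adjusted p = 0.011 over 11 comparisons). The difference of the 21-day line was -4.55 to the 12-day cells, -5.89 to 50-day WJ and -4.54 to 50-day BUC (exact permutation test, two-sided p = 0.00909, the lowest value that 220 splits can give, adjusted p = 0.025 in each). All 14 libraries of the line enter as if independent, although they come from 1 line. The 165-day line and the 12-day cells differed by 0.006 on the log2 scale (two-sided exact permutation p = 1), with SDs of 0.65 and 0.05. The 50-day WJ cells were 1.34 above both the 12-day and the BUC cells (exact permutation test, two-sided p = 0.1, the lowest value for 3 against 3, adjusted p = 0.157). The difference of the 165-day line to 50-day WJ was -1.33, with no overlap (two-sided exact permutation p = 0.0357, adjusted p = 0.0786).

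**Figure D4:**
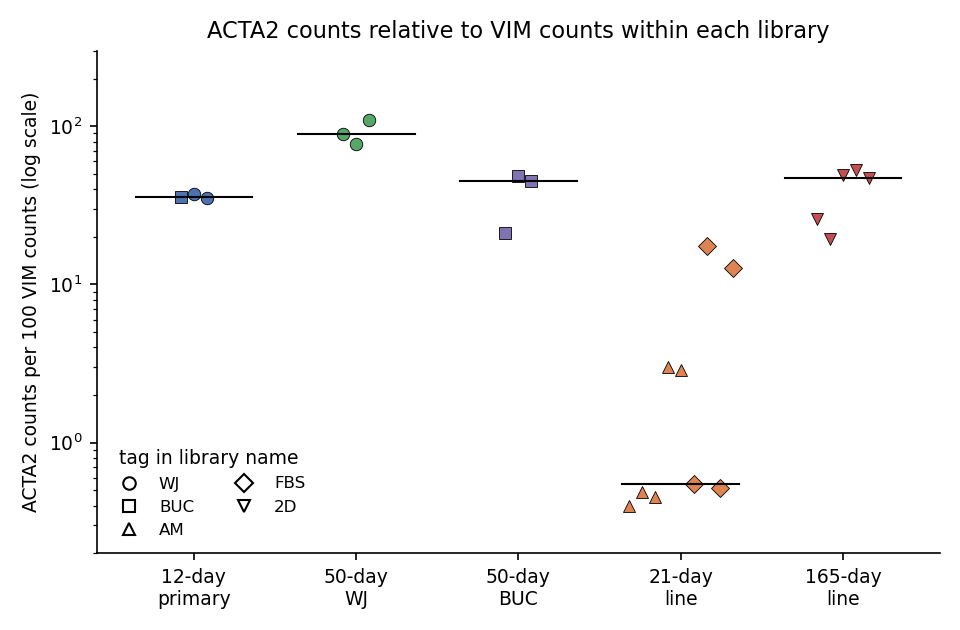
ACTA2 counts for each 100 VIM counts within each library on a log axis, by group, with the tag as marker shape and the line at the group median. The 9 libraries of the 21-day line lie between 0.40 and 17.5, and the 14 others between 19.4 and 109.

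The genes with the pattern most like each member were found by Pearson's correlation of log2 CPM over the 23 libraries, among 7146 other genes with a mean of at least 10 CPM. For ACTA2 the closest was ENSBTAG00000047613, with r of 0.99 and a Spearman's rho of 0.975. It stood at 393 to 438 CPM in the 12-day cells, 738 to 991 CPM in 50-day WJ and 452 to 718 CPM in 50-day BUC. In the 21-day line it stood at 2.8 to 5.07 CPM in AM libraries 1, 2 and 3 and FBS libraries 1 and 3, at 31 and 30.3 CPM in AM libraries 4 and 5, and at 112 and 72 CPM in FBS libraries 2 and 4. It was at 121 to 315 CPM in the 165-day line. This gene was thus low in the same 5 libraries of the 21-day line and higher in AM libraries 4 and 5, and it was lower in libraries 1 and 2 than in the other 3 at 165 days. FBS libraries 2 and 4, which agree in ACTA2, differ in this gene. It was chosen for its correlation over these libraries, so the likeness is no independent evidence. Its 50-day WJ range lay just above the BUC range, whereas those of ACTA2 were far apart. The next was ENSBTAG00000001829 with r of 0.975. With CPM by library total in place of TMM, these 2 genes were again the closest, but by Spearman's rho they ranked 2 and 21. At the opposite end were ENSBTAG00000034529, with r of -0.96, and ENSBTAG00000017393, with r of -0.92. The former ranked 4 at that end by Spearman's rho and 1 by library total, and the latter 58.5 and 29, so the second place depends on the measure.

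For VIM the closest genes were ENSBTAG00000050621, with r of 0.884, and ENSBTAG00000015329, with r of 0.878. The former stood at 96.9 to 103 CPM in the 12-day cells, 120 to 124 CPM in 50-day WJ, 60.6 to 131 CPM in the 21-day line and 33.6 to 40.6 CPM at 165 days. Like VIM it was lowest in the 165-day line and varied widely at 21 days. Unlike VIM, which spanned 2.21-fold in 50-day BUC, it varied little there, from 94.4 to 98.3 CPM. The VIM ranking depends on the scaling: with CPM by library total these genes ranked 14 and 7, with r of 0.855 and 0.872. The most opposite genes were ENSBTAG00000012305, with r of -0.89 (-0.55 by library total), and ENSBTAG00000019520, with r of -0.88 (-0.61 by library total). These correlations are descriptions over libraries that form groups and have depth and scaling in common. The files do not pair these IDs with gene names.

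**Figure D5:**
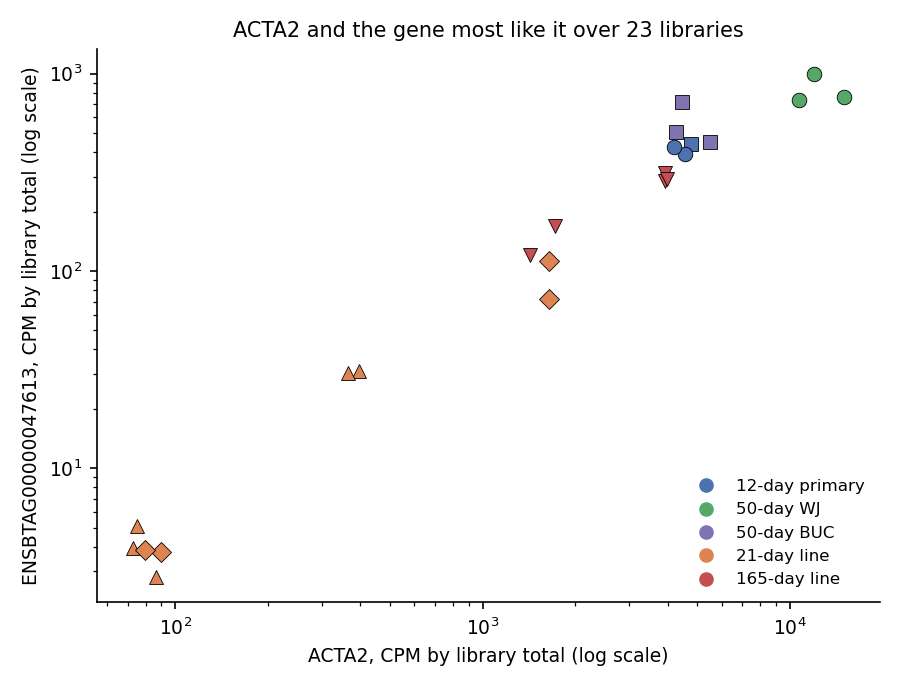
ACTA2 against ENSBTAG00000047613, the gene most like it, in CPM of the library total on log axes in each of the 23 libraries. Both genes lie lowest in the same 5 libraries of the 21-day line (under 100 CPM of ACTA2 and 2.8 to 5.07 CPM of the other gene) and highest in the 50-day WJ cells.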

How the data were processed

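The libraries are bulk MARS-Seq, which reads 3′ tags, per the labels' protocols. The submitters' processing notes name STAR, HTSeq, cutadapt and DESeq and the build ARS-UCD1.2. Not given in the sources used here are versions, annotation release, strand setting and any collapse of molecular identifiers. The authors deposited raw counts per gene for 16094 Ensembl IDs in 23 columns, each matched to a sample by its title. Titles begin with pBUC for all primary libraries, also those named WJ, and with iBUC for the line. The split into WJ and BUC thus rests on the library names alone. The 2 genes, the comparisons and the alternatives were chosen with earlier results of these data known. Gene lists by symbol were planned and could not be used, since 0 IDs were matched to a symbol.

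All 23 libraries entered 1 fit with 5 groups in edgeR 4.0.16 under R 4.3.3 (TMM, filterByExpr, glmQLFit, glmQLFTest, Benjamini-Hochberg over all genes tested, threshold 0.05). The 9 libraries of the 21-day line had a fit of their own for AM against FBS. Standard errors were derived from F, and levels in CPM use library totals. The count ratio was compared by exact permutation tests in SciPy 1.17.1, 11 in all. Likeness used log2 CPM with TMM and a prior count of 2, and by rule the 2 genes with the highest and the 2 with the lowest correlation were named. Alternatives were RLE factors, library totals, no filter, DESeq2 1.42.0, limma 3.58.1 voom, thinned counts, fits of only the groups compared, a replicate block, subsets by tag and fits without each library in turn. The edgeR comparisons were checked on simulated counts in which 200 genes were changed and a gene had the same dispersion in every group. A log2 change of 1 was recovered for 21% (difference of time effects) to 60% (165 against 21 days) of the changed genes. A log2 change of 2 was recovered for 84% to 97%. Changes of the smaller size were thus often missed in the simulation. Most real comparisons called far more genes than were changed there, so these shares need not hold for the data. A gene not called may still differ. Pairs of libraries of a group differed by at least 2.85 in chi-square per degree of freedom, so none agreed within counting noise, which does not show that they are separate cultures.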

Additional observations from a re-analysis of the deposited data

Results flagged for a closer look

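The effect of time on VIM differed between the line and WJ primary cells by a test of the difference itself. The log2 change from 21 to 165 days in the line minus that from 12 to 50 days in WJ was -0.87 with a standard error of 0.28 (edgeR quasi-likelihood test, adjusted p = 0.0163), and 44.5% of genes were called. The change was -0.65 in the line and 0.21 in WJ cells. All 5 libraries at 165 days were below all 9 at 21 days in CPM by total, and all 3 WJ libraries at 50 days were above the 3 at 12 days, as groups did not overlap for 32.8% and 59% of genes. With TMM-scaled library sizes the VIM levels of the groups of the line overlap. With only the WJ libraries at 12 days the difference was -0.92 (edgeR adjusted p = 0.0257). The days compared and the tags of the line differ between the arms, and these cannot be told apart from the kind of cell.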

How the results depend on the processing

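Every called VIM difference (165 days against 21 days, 12-day cells, WJ and BUC, and the difference of time effects) stayed called and in the same direction under each alternative run. So did the called ACTA2 differences except the 165-day line against 50-day WJ, which was lost without libraries 1 and 2 of that line (-1.86) and ran from -2.34 to -2.06 when single libraries were left out. With library totals the uncalled VIM differences of the 21-day line changed sign, to 0.24 against 12-day cells, 0.11 against WJ and 0.088 against BUC. VIM in the 21-day line against 12-day cells was also 0.053 with only the AM libraries, and WJ against BUC was 0.00042 with limma voom. Fits of only the groups compared called VIM in WJ against 12-day cells (0.33) and ACTA2 in WJ against 12-day cells (1.69), WJ against BUC (1.36) and the 165-day line against BUC (-0.89). With only the AM libraries the ACTA2 difference of time effects was 2.44. Why these values moved was not tested.

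P numbers gave no clear pairing of WJ with BUC, with correlations of -0.07 to 0.08 between same-numbered libraries and -0.097 to 0.064 between others. Library numbers gave none of AM with FBS, at -0.37 to 0.52 against -0.58 to 0.59. With so few libraries these values cannot exclude a shared culture or animal. Numbers in the other groups are in accession order. With a replicate block VIM in the 21-day line against 12-day cells was 0.049. ACTA2 was then called for the 165-day line against 12-day cells (-1.32) and BUC (-1.51). It was also called for WJ against 12-day cells (1.53) and BUC (1.34) and for the difference of time effects (3.01). In these ACTA2 comparisons, in the order given, the same fit called 7508, 7322, 4204, 2378 and 5281 of 11489 genes. The block also gave ACTA2 larger differences of the 21-day line to 12-day cells (-5.86), WJ (-7.39) and BUC (-6.05). The differences of 165 to 21 days (4.54) and of the 165-day line to WJ (-2.85) were larger as well. In this fit the block was a library's number within its group, and the labels do not say that this number pairs libraries. Numbers 6 to 9 belong to the FBS libraries of the 21-day line alone. Each of these thus had a term of its own and did not bear on the differences.

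With TMM-scaled library sizes mean VIM was 13609 CPM at 12 days and 15787 CPM in WJ, and mean ACTA2 4906 CPM at 12 days and 5718 CPM in BUC. With single libraries left out, VIM ran from -0.056 to 0.51 for BUC against 12-day cells, from -0.30 to 0.26 for WJ against BUC and from -0.63 to -0.065 for the 21-day line against BUC. The log2 count ratio ran from -0.13 to 0.23 for the 165-day line against 12-day cells, from -0.37 to 0.24 against BUC and from -0.23 to 0.38 for BUC against 12-day cells. Its differences between the 21-day line and 12-day cells (-4.99 to -4.31), BUC (-4.98 to -4.30) and WJ (-6.33 to -5.64) missed the threshold when 2 primary libraries were left, since fewer splits are then possible. Genes called for AM against FBS numbered 45, against 195 with DESeq2, 0 with a replicate block in edgeR, and 6 to 46 with a library left out. With library totals the median log2 fold change of all genes was 0.33 for the 21-day line against 12-day cells and -0.33 for 165 against 21 days.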
